A study of Mus musculus with 6 samples.

Results

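Expression of 45 genes of the PI3K, AKT and mTOR pathway was examined in hippocampus of wild-type (WT) and Phf8 knockout (KO) mice. The genes were taken as a list by name: the PI3K and AKT enzymes (8 genes), the subunits of the mTOR complexes (7), the inhibitors above mTOR together with AMPK (13), the Rheb, Rag and Ragulator proteins that activate mTOR at the lysosome (6), and the S6 kinase, 4E-BP and other output genes (11). A probe set named for the gene alone was found for 43 of the 45. Rps6kb1, which encodes the S6 kinase p70S6K, and Eif4g1, which encodes a translation initiation scaffold, had no such probe set in the gene table used here. Of the 43 genes, 42 passed the filter on low signals, and they are 42 of 12903 genes tested. Prr5, a subunit of mTOR complex 2, did not pass, with log2 signals of 2.12 to 4.76 on the WT arrays and 2.58 to 4.88 on the KO arrays.

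PI3K at the plasma membrane makes the lipid that recruits AKT, and AKT releases mTOR from its inhibitor, the TSC complex. mTOR complex 1, which contains Raptor, promotes protein synthesis through S6 kinase and the 4E-BPs and holds back autophagy through the ULK kinases, whereas mTOR complex 2, which contains Rictor, phosphorylates AKT. In hippocampal neurons the pathway is known for its part in protein synthesis at synapses, synaptic plasticity and memory. Most of its regulation is by phosphorylation, which an array of mRNA does not measure.

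RNA of 3 WT and 3 KO hippocampus samples was hybridised to Affymetrix arrays, 1 array a sample, and all animals were 10 weeks old and of C57BL/6 background. In the KO allele, as the methods of the study give it, the Phf8 exons that encode the histone demethylase domain were flanked by loxP sites and removed with EIIa-Cre, which acts in the early embryo, so the loss is not limited to hippocampus or to neurons. The line came from embryonic stem cells of another strain and was crossed to C57BL/6J. The study used hemizygous males and WT littermates, and whether a sample is 1 animal or a pool is not clear, so p-values measure the spread between these arrays. Values are deposited log2 MAS5 signals, and each gene is represented by its brightest kept probe set unless another is named. KO was compared with WT by limma over all 12903 genes, and a gene was called at a Benjamini-Hochberg adjusted p under 0.05.

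The targeted gene Phf8 had log2 signals of 9.90, 9.66 and 9.73 on the WT arrays and 8.23, 8.55 and 7.99 on the KO arrays. All KO arrays lay below all WT arrays, with a difference of -1.51 (standard error 0.17, adjusted p = 0.0527) in limma. The array of KO replicate 3 stood apart, with correlations across genes of 0.925 to 0.940 with the other arrays against 0.976 to 0.987 among the other 5. The markers of thalamus and habenula, 10 of 10 measured and above the filter level on every array, had a summed linear signal of 5931 to 6631 on the WT arrays and 7703 to 38069 on the KO arrays, the highest on KO replicate 3. The 4 measured of 8 erythrocyte markers summed to 1825 to 2076 on the WT arrays and 120 to 234 on the KO arrays, where as few as 0 of 4 were above the filter level. All measured markers of dentate granule cells (7 of 7), CA1 (5 of 6) and CA3 (6 of 6) pyramidal cells were above it on every array. The granule cell markers summed to 15643 to 18490 on the WT arrays and 13628 to 15932 on the KO arrays. The CA3 markers summed to 20541 to 21161 and 16627 to 20076, and the CA1 markers to 8738 to 9319 and 6210 to 10390. The granule cell, CA3 and CA1 sums were each lowest on KO replicate 3. Ependyma markers (5 of 5) summed to 943 to 1434 and 1436 to 3316, the highest on KO replicate 3. Those of meninges and fibroblasts (5 of 6) summed to 2231 to 3037 and 2428 to 5924. Choroid plexus markers (8 of 8) summed to 29885 to 35404 and 17491 to 36379, the lowest on KO replicate 3. The part of any of these markers in the results below was not tested. In whole tissue, fewer cells of a type and less RNA per cell cannot be told apart.

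No member was called in KO hippocampus. The count was 0 of 42 in limma, where 8 of all 12903 genes were called (0.062%), and 3 of 42 had an unadjusted p under 0.05, against 7.48% of all genes. These 3 were Deptor, Lamtor1 and Mapkap1. The mean was higher in KO for 23 members and lower for 19, with a median difference of 0.0046 on the log2 scale against 0.01 over all genes. The arrays of the genotypes did not overlap for 6 members, against 16.7% of all genes. Higher on all KO arrays were Deptor, Sesn2 and Lamtor1 (9.56% of all genes are separated in this direction), and lower were Mapkap1, Sesn1 and Ulk2 (7.13% of all genes). A difference past 1.5-fold was reached by Deptor, Sesn2 and Rps6kb2, against 6.18% of all genes. For 20 of the 42 the 95% interval of the difference lay inside a 1.5-fold change in either direction, against 46.8% of all genes, and for the other 22 a change of that size is within the interval. These shares of members (7.14% at an unadjusted p under 0.05 and past 1.5-fold, 14.3% without overlap, 47.6% with a narrow interval) lay near their backgrounds.

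**Figure D1:**
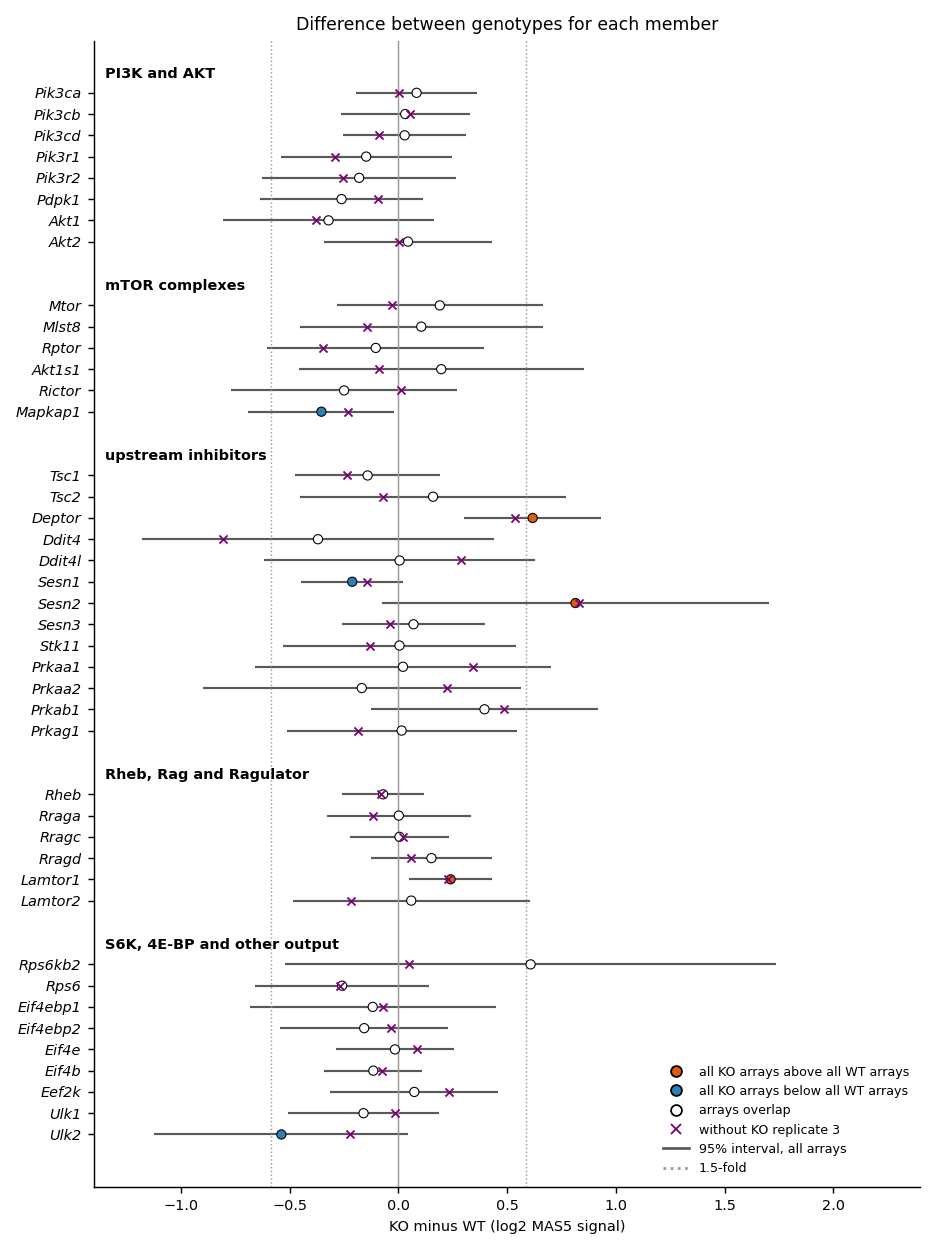
Difference between KO and WT in log2 MAS5 signal (x axis) for the 42 members measured, grouped by role, with the 95% limma interval as a line and a cross for the difference without KO replicate 3. The 3 orange and 3 blue points are the 6 members whose arrays do not overlap, and the dotted lines mark a 1.5-fold change.

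The WT arrays lay close together for many members, and the KO arrays spread more. The SD was larger over the KO than over the WT arrays for 34 of the 42 members, with 80% of all genes on that side. KO replicates 2 and 3 often lay on opposite sides of the WT arrays. In 14 of 42 members (33.3%) KO replicate 2 was below and KO replicate 3 above all WT arrays, against 14% of all genes. These were Pik3cd, Pik3r1, Akt2, Mtor, Mlst8, Rptor, Akt1s1, Tsc2, Ddit4, Stk11, Prkag1, Rraga, Lamtor2 and Rps6kb2. The reverse held for 6 members (14.3%), against 17% of all genes. This pattern was chosen after the values were seen, so it is a description with no test. The thalamus markers were also highest on KO replicate 3, with a median 2.48 above the WT mean, against 0.18 on KO replicate 2.

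**Figure D2:**
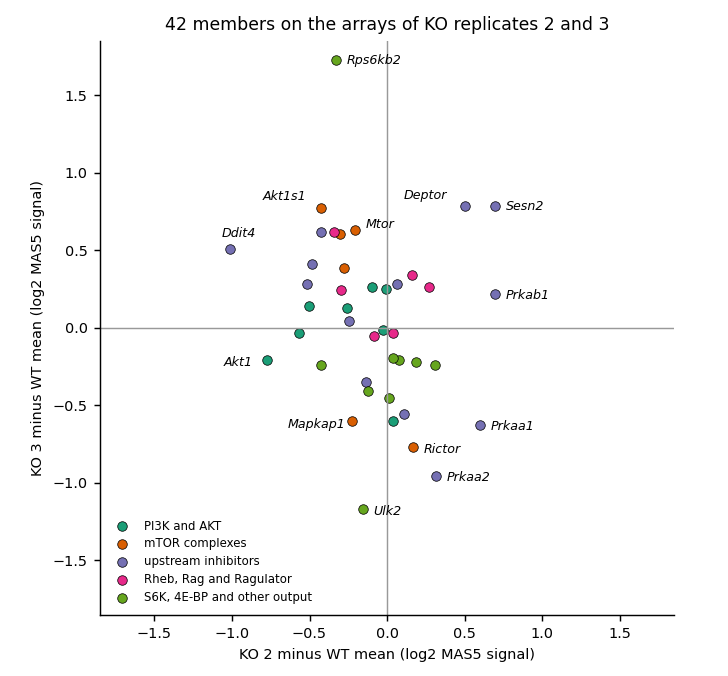
Log2 signal of each of the 42 members on KO replicate 2 (x axis) and KO replicate 3 (y axis), each minus the mean of the 3 WT arrays, with points coloured by role. Low on replicate 2 and high on replicate 3 (upper left) are Ddit4, Akt1s1, Mtor and Rps6kb2, and Deptor and Sesn2 are high on both.

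Without KO replicate 3, 1 of 42 members was called, against 0.411% of all genes. The member was Ddit4, lower in KO by limma, as 0.31% of all genes were. By this comparison 7 members had an unadjusted p under 0.05 (13.9% of all genes) and 13 had arrays that did not overlap (31.6% of all genes). The median over the 42 moved to -0.07, against 0.03 over all genes, with 16 members higher and 26 lower. The sign of the difference changed for 13 members: Pik3cd, Mtor, Mlst8, Akt1s1, Rictor, Tsc2, Sesn3, Stk11, Prkaa2, Prkag1, Rraga, Lamtor2 and Eif4e. On leaving out each array in turn, members at an unadjusted p under 0.05 numbered 1 to 10, the fewest without WT replicate 3 and the most without KO replicate 2. The share of all genes is not given for those 2 settings, so these counts cannot be set against it.

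Among the PI3K and AKT genes, none of the 8 separated the genotypes, and the median difference was -0.06. Akt1, the more widely expressed AKT kinase, had log2 signals of 10.33, 10.10 and 10.31 on the WT arrays and 10.27, 9.47 and 10.04 on the KO arrays. KO replicates 2 and 3 lay below the WT arrays and KO replicate 1 among them, with a difference of -0.32 (standard error 0.21, 95% interval -0.81 to 0.16, adjusted p = 0.709 in limma). Without KO replicate 2 it was -0.096, and without KO replicate 1 it was -0.49. Pdpk1 encodes PDK1, the kinase that activates AKT. Its signals were 12.06, 12.08 and 11.93 on the WT arrays and 11.80, 12.06 and 11.42 on the KO arrays, which overlap, with a difference of -0.26 (95% interval -0.64 to 0.11) that was -0.09 without KO replicate 3 and -0.41 without KO replicate 2. Akt2, the AKT kinase best known from insulin action, differed by 0.04. The catalytic subunits Pik3ca, Pik3cb and Pik3cd differed by 0.08, 0.03 and 0.03, each with its interval inside 1.5-fold. Of the 6 Pik3cd probe sets 2 were kept, and the value given is of the brighter, with a WT mean of 12.86. The other kept Pik3cd probe set, with a WT mean of 7.67, differed by -0.23, with overlapping arrays. The Pik3cd probe sets not kept had WT means of 3.15 to 4.88. Which of these probe sets reports Pik3cd mRNA was not tested. The regulatory subunits Pik3r1 and Pik3r2 differed by -0.15 and -0.18. Dimmer probe sets of this group gave separated arrays in 3 genes: Pik3ca in 2 of 6 kept probe sets (-0.26 and -0.17), Pik3r1 in 1 of 4 (-0.46) and Akt2 in 1 of 2 (0.30). Of all kept probe sets, 15.2% had arrays that did not overlap.

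The mTOR complex genes had a median difference of 0.00, with 3 of 6 higher and 3 lower on average, and a median of -0.12 without KO replicate 3. Mtor, the kinase shared by both complexes, had log2 signals of 10.42, 10.44 and 10.39 on the WT arrays and 10.57, 10.21 and 11.05 on the KO arrays. The WT arrays lay close together (SD 0.03), while KO replicate 2 was below them and KO replicates 1 and 3 above. The difference was 0.19 (standard error 0.20, 95% interval -0.28 to 0.66, adjusted p = 0.807 in limma) and became -0.03 (95% interval -0.29 to 0.23) without KO replicate 3. The other kept Mtor probe sets differed by -0.36 and 0.43, with overlapping arrays. Rptor, which encodes the Raptor subunit that binds substrates, differed by -0.10 over all arrays and by -0.35 without KO replicate 3 (95% interval -0.61 to -0.09, adjusted p = 0.238 in limma), where its arrays did not overlap. Akt1s1, which encodes the inhibitory subunit PRAS40, differed by 0.20, and Mlst8, a subunit of both complexes, by 0.10. Without KO replicate 3 both changed sign, to -0.09 and -0.14.

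Both measured members particular to mTOR complex 2 were lower on average. Rictor, its scaffold, had signals of 11.07, 11.09 and 11.06 on the WT arrays and 10.93, 11.24 and 10.30 on the KO arrays. The KO arrays lie on both sides of the WT arrays, and the difference of -0.25 (95% interval -0.77 to 0.27) was 0.01 without KO replicate 3. The other kept Rictor probe sets differed by 0.09, -0.20 and -0.42, with overlapping arrays. Mapkap1 encodes SIN1, the subunit that guides complex 2 to AKT. It had signals of 10.28, 10.08 and 10.12 on the WT arrays and 9.92, 9.94 and 9.56 on the KO arrays. All KO arrays were below all WT arrays, with a difference of -0.35 (standard error 0.14, 95% interval -0.69 to -0.02, adjusted p = 0.659 in limma) and of -0.23 without KO replicate 3. Its second kept probe set differed by 0.09, with overlapping arrays. Prr5l, another complex 2 subunit but not a member, differed by 0.30, with overlapping arrays.

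**Figure D3:**
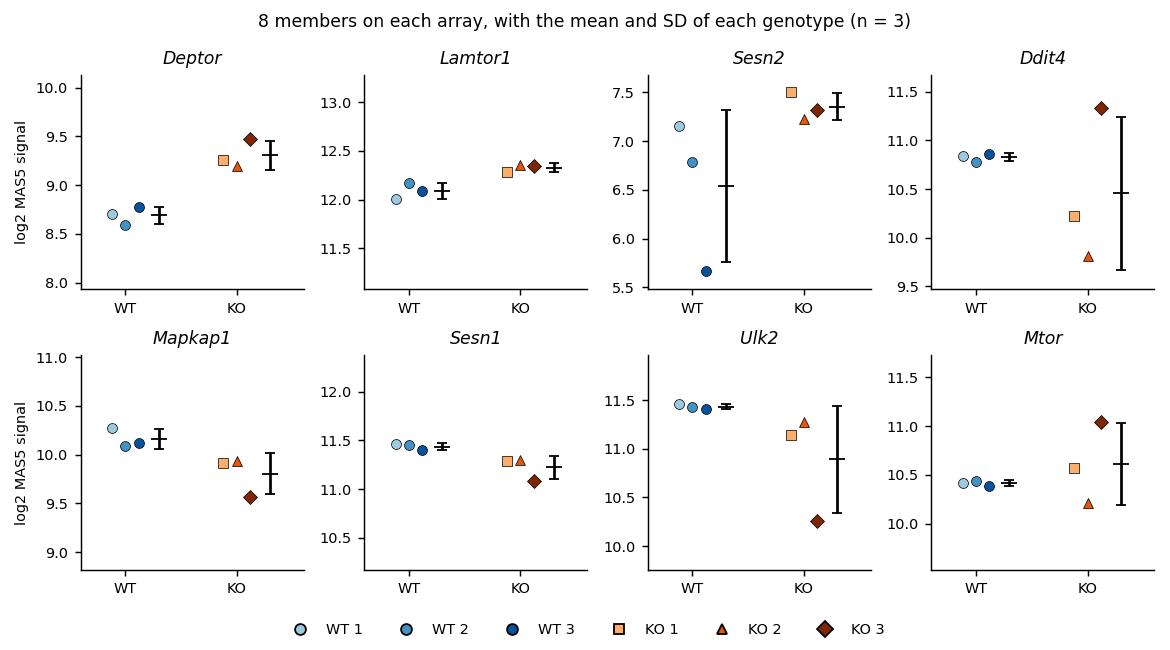
Log2 MAS5 signal (y axis, each panel spanning the same range of log2 units) of 8 members by array, and bars beside the points give mean and SD per genotype (n = 3). Deptor, Lamtor1 and Sesn2 are higher and Mapkap1, Sesn1 and Ulk2 lower on all KO arrays, while Ddit4 and Mtor have KO arrays on both sides of the WT arrays.

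The upstream inhibitors held the largest differences among members in both directions once KO replicate 3 was left out. Deptor encodes a protein that binds mTOR and inhibits both complexes. It had log2 signals of 8.70, 8.60 and 8.77 on the WT arrays and 9.25, 9.19 and 9.47 on the KO arrays. The groups were separated by 0.42, which is more than the range within the WT arrays, and the fold of KO over WT was 1.53. The difference of 0.62 (standard error 0.14, 95% interval 0.30 to 0.93, adjusted p = 0.430 in limma) had the smallest unadjusted p of the 42 members (0.0022), and without KO replicate 3 it was 0.53 (adjusted p = 0.114). Of the 5 kept Deptor probe sets, 4 were higher on average in KO and 3 of them separated (0.62, 0.46 and 0.45). With the mean of its kept probe sets, Deptor differed by 0.23 (adjusted p = 0.785 in limma). The dimmest kept probe set differed by -0.77, with signals of 6.24, 7.07 and 6.81 on the WT arrays and 6.86, 4.82 and 6.13 on the KO arrays. A further Deptor probe set did not pass the filter and was not tested. Its signals were 4.26, 4.46 and 4.44 on the WT arrays and 2.24, 3.71 and 1.38 on the KO arrays, all lower.

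Ddit4 encodes REDD1, which is induced by hypoxia, glucocorticoids and other stress and restrains mTOR complex 1 through the TSC complex. Its only kept probe set had signals of 10.84, 10.78 and 10.86 on the WT arrays and 10.22, 9.82 and 11.33 on the KO arrays. KO replicates 1 and 2 lay below the WT arrays and KO replicate 3 above them, and over all arrays the difference was -0.37 (standard error 0.35, 95% interval -1.18 to 0.44, adjusted p = 0.778 in limma). Without KO replicate 3 it was -0.81 (standard error 0.12, 95% interval -1.09 to -0.53, adjusted p = 0.0350), a fold of 0.571. Leaving out KO replicate 1 or 2 instead gave -0.25 (adjusted p = 0.847) and -0.050 (adjusted p = 0.939). Ddit4 was singled out after its values were seen. Its promoter is shown because it holds ACGTG, the core letters of the sites of hypoxia-inducible factors. The window is the 250 bases before the annotated start, 5′ to 3′ on the strand of the gene, from RefSeq on GRCm38.p6, chr10:59951771-59952020 on the minus strand, with the match in capitals, 187 bases from its first letter to the start.
Ddit4: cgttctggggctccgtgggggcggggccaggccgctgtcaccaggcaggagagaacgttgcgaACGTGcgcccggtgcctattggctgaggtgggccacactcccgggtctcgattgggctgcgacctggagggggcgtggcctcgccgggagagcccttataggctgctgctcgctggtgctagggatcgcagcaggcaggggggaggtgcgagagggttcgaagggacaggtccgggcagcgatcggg
ACGTG, searched on both strands and also part of CACGTG, stands in such a window in 13 of 42 members that have one (31%) and in 24.9% of the 10422 tested genes with a window. The palindromic glucocorticoid receptor element was in no member and in 0.0096% of genes.

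The sestrins, which pass amino acid and stress signals to mTOR complex 1, gave different values for the 3 genes. Sesn1 had signals of 11.46, 11.45 and 11.40 on the WT arrays and 11.29, 11.30 and 11.08 on the KO arrays. All KO arrays were lower, with a difference of -0.21 (standard error 0.10, 95% interval -0.45 to 0.02, adjusted p = 0.670 in limma), and -0.14 without KO replicate 3. Its 3 bright probe sets were all separated and lower (-0.21, -0.37 and -0.37), and a dim one differed by 0.05. Sesn2 had signals of 7.16, 6.79 and 5.66 on the WT arrays and 7.50, 7.23 and 7.32 on the KO arrays. All KO arrays were higher, by a gap of 0.07, and the difference of 0.81 (95% interval -0.07 to 1.70) rests in part on the low WT replicate 3: without that array it was 0.38. The signal on WT replicate 3 is below the filter level, which was 5.73 to 6.05 over the arrays. With a filter at the 60th percentile Sesn2 was not kept. The other Sesn2 probe set differed by -0.05. Sesn3 differed by 0.07. Whether the sestrins differ from each other in their change was not tested.

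The remaining inhibitors overlapped between genotypes. Tsc1 and Tsc2, which form the complex that switches off Rheb, differed by -0.14 and 0.16. Ddit4l, the relative of Ddit4, differed by 0.0049. Stk11 encodes LKB1, the kinase that activates AMPK, and differed by 0.0047. Of the AMPK subunits, the catalytic Prkaa1 and Prkaa2 differed by 0.02 and -0.17, the scaffold Prkab1 by 0.40 and the nucleotide-binding Prkag1 by 0.01. Prkaa1 and Prkaa2 were high on KO replicate 2 (9.30 and 9.80) and low on KO replicate 3 (8.08 and 8.53), against WT arrays of 8.54 to 8.80 and 9.39 to 9.55.

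**Figure D4:**
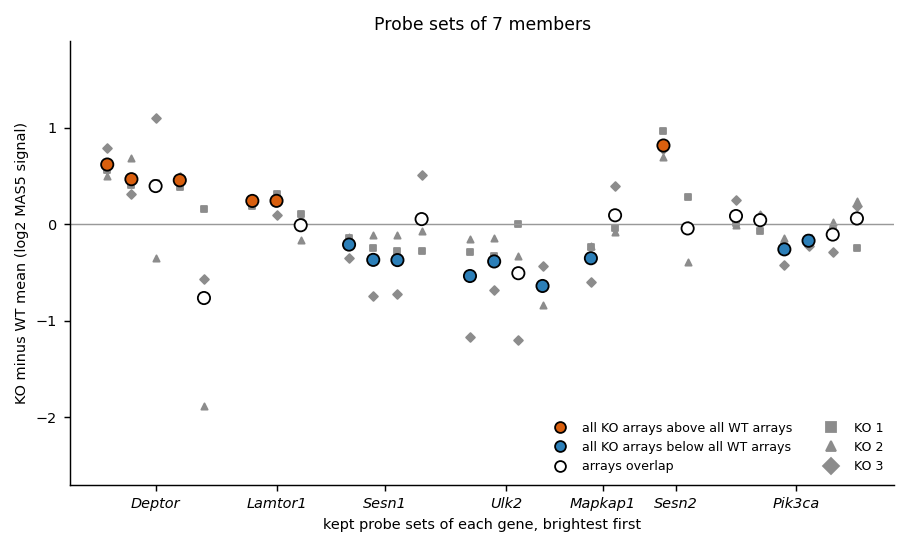
KO minus WT mean in log2 MAS5 signal (y axis) for every kept probe set of 7 members, ordered within a gene from brightest to dimmest WT signal, with the grey marks giving each KO array. Separated and higher are 3 Deptor probe sets, 3 each of Sesn1 and Ulk2 are separated and lower, and the second probe sets of Mapkap1 and Sesn2 overlap.

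Among the genes for activation at the lysosome, Lamtor1 alone separated the genotypes. It encodes the subunit that anchors Ragulator to the lysosome. Its signals were 12.01, 12.17 and 12.09 on the WT arrays and 12.28, 12.36 and 12.35 on the KO arrays. The KO arrays lay closer together than the WT arrays and all above them, with a difference of 0.24 (standard error 0.08, 95% interval 0.05 to 0.43, adjusted p = 0.628 in limma), a fold of 1.18, and 0.23 without KO replicate 3. A second probe set was also separated (0.24), and the third differed by -0.01. The Lamtor1 promoter is shown as the only one among the separated members with a window that holds the E-box CACGTG, the letters bound by TFEB, USF and MYC family factors. It is given as for Ddit4, at chr7:101905587-101905836 on the plus strand, with the E-box in capitals, 68 bases from its first letter to the start.
Lamtor1: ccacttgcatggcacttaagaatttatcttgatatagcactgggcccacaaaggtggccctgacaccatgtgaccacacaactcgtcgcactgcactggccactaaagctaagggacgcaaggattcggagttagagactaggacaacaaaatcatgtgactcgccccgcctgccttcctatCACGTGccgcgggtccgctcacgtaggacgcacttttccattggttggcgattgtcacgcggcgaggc
CACGTG was in the windows of 6 of 42 members (14.3%; Eef2k, Eif4e, Eif4g1, Lamtor1, Rheb and Rragc) and of 9.64% of genes. Of these, Lamtor1 was separated and higher, Eif4g1 was not measured, and the other 4 overlapped between genotypes.

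Rragd, a Rag GTPase, had signals of 11.33, 11.40 and 11.27 on the WT arrays and 11.29, 11.49 and 11.67 on the KO arrays. The groups overlapped, with a difference of 0.15 (95% interval -0.13 to 0.43). Rheb, the GTPase that activates mTOR complex 1 directly, differed by -0.07 (95% interval -0.26 to 0.12). The Rag genes Rraga and Rragc differed by 0.0014 and 0.0044, and Lamtor2, another Ragulator subunit, by 0.06. For Rheb, Rraga, Rragc, Rragd and Lamtor1 the interval excludes a 1.5-fold change in either direction.

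Of the 9 measured output genes, 7 were lower and 2 higher on average in KO, with a median of -0.12 that was -0.03 without KO replicate 3. Rps6, the ribosomal protein phosphorylated by S6 kinase, had signals of 9.44, 9.68 and 9.15 on the WT arrays and 9.31, 8.99 and 9.18 on the KO arrays. The groups overlapped, with a difference of -0.26 (standard error 0.17, 95% interval -0.66 to 0.14, adjusted p = 0.714 in limma). A further 9 probe sets are assigned both to Rps6 and to the pseudogene Rps6-ps4 and were not used, so this value rests on 1 probe set, and whether it also detects the pseudogene was not tested. Rps6 mRNA is of the kind whose translation mTOR complex 1 controls through a run of pyrimidines at its first base, which is why its start is shown: 20 bases before and 20 from the start, chr4:86857348-86857387 on the minus strand, with the run in capitals.
Rps6: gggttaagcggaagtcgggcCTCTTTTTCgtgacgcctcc
A run of at least 5 pyrimidines that opens with C at the annotated start was found in 4 of 42 members (9.52%; Pik3ca, Pik3cd, Prr5 and Rps6) and in 3.05% of genes.

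Ulk2, which encodes a kinase that starts autophagy, had signals of 11.46, 11.43 and 11.41 on the WT arrays and 11.14, 11.28 and 10.26 on the KO arrays. All KO arrays were lower, the lowest on KO replicate 3, and the difference was -0.54 (standard error 0.25, 95% interval -1.12 to 0.05, adjusted p = 0.668 in limma) and -0.22 (95% interval -0.40 to -0.04) without that array. All 4 Ulk2 probe sets were lower on average and 3 were separated (-0.54, -0.39 and -0.64). Ulk1, its relative, differed by -0.16. Rps6kb2, the smaller S6 kinase gene, differed by 0.61 over a wide interval (-0.52 to 1.74): its signals were 6.25 to 6.35 on the WT arrays and 6.74, 5.99 and 8.04 on the KO arrays, and without KO replicate 3 it differed by 0.05. The translation repressors Eif4ebp1 and Eif4ebp2 differed by -0.12 and -0.16. The cap-binding Eif4e differed by -0.02, the helicase cofactor Eif4b by -0.12 and the elongation factor kinase Eef2k by 0.07.

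**Figure D5:**
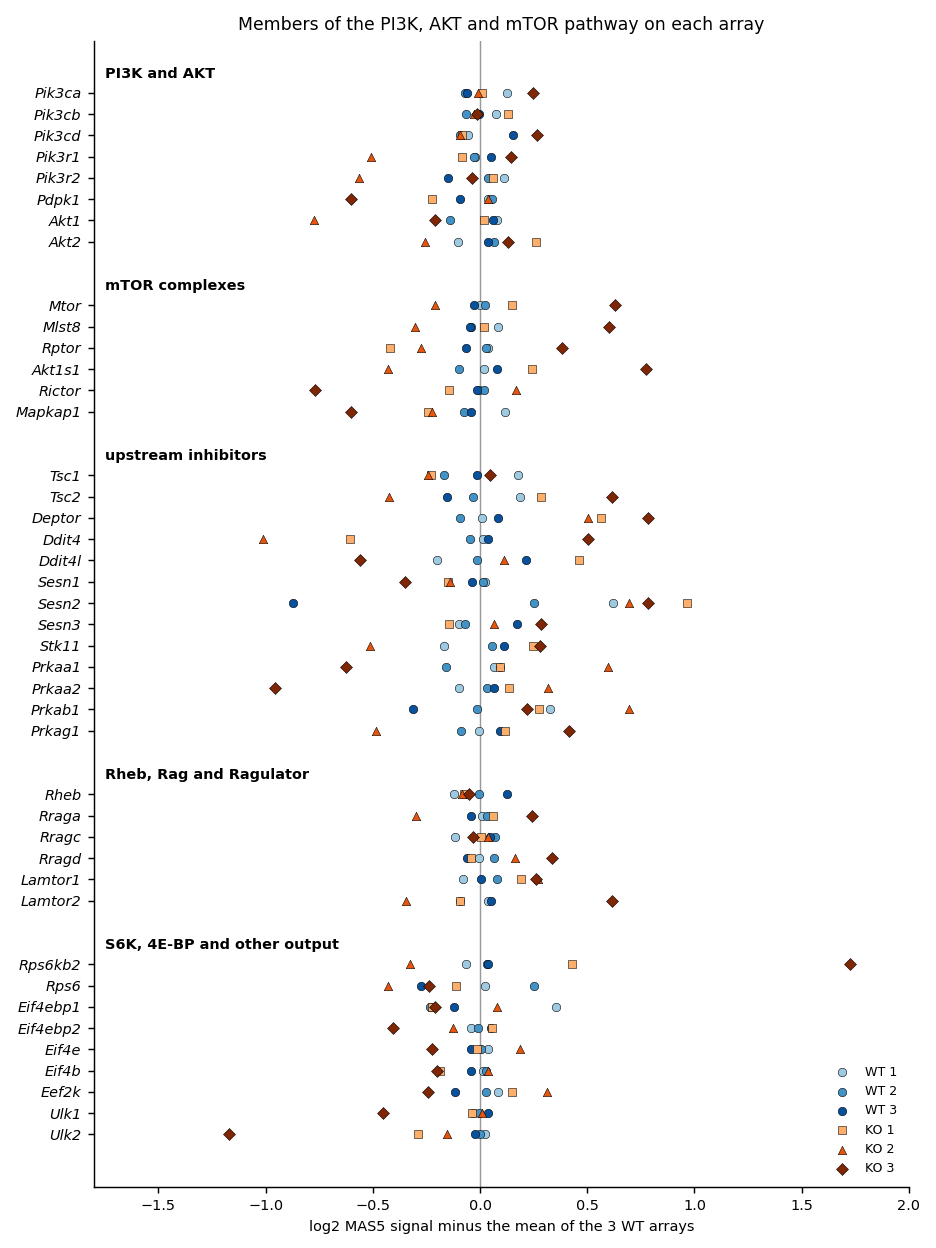
Log2 MAS5 signal of the 42 members on each of the 6 arrays (x axis), relative to the WT mean of the gene and grouped by role. Points of KO replicates 2 and 3 lie on opposite sides of the WT points for Mtor, Akt1s1, Ddit4, Prkaa2 and other members, and the farthest point is Rps6kb2 on KO replicate 3.

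Over all kept probe sets of the members, 0 of 93 were called by limma, against 0.0219% of all kept probe sets, and 6 had an unadjusted p under 0.05 (6.18% of all). The arrays did not overlap for 17 of the 93 (15.2% of all), 7 higher and 10 lower, against 7.37% and 7.83% of all. Probe sets of a gene measure the same RNA samples and are not independent. Of the 27 members with more than 1 kept probe set, 12 had all of them on the same side on average. The same count over all genes is not given, so this is a description of the members only.

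The promoter windows of the 42 members that have one held a median of 19 CG pairs in 250 bases (5 to 45), against a median of 17 for the tested genes with a window (quartiles 10 and 24). The ATF4 element TGATGNAA was in 3 member windows (7.14%) and 2.42% of genes, the FOXO element TGTTTAC in 2 (4.76%; Akt1 and Mapkap1) and 2.64%, and the CREB element TGACGTCA in 0 and 3.0%. Both strands were searched. A match is no more than the letters in this window.

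Other genes of the pathway were taken as a list of 106, of which 94 were measured. Of these 40 were higher and 54 lower on average in KO, with a median of -0.04. None was called by limma, 8 had an unadjusted p under 0.05 (7.48% of all genes) and 17 had arrays that did not overlap (16.7% of all genes). The adaptors Gab1 and Gab2, which link receptors to PI3K, were higher on all KO arrays (0.39 and 0.51). In the same list of 8 receptors and adaptors, Grb10 was also higher on all KO arrays (0.73, and 0.40 without KO replicate 3). Insr was lower on all KO arrays (-0.09). Without overlap were thus 3 higher and 1 lower of the 8, against 9.56% and 7.13% of all genes. For Insr the gap between the groups was only -0.0052. In the other lists of pathway genes, those without overlap ran from 0 of 12 (PI3K and phosphoinositide) to 5 of 13 (AKT and its targets). Tbc1d4, the AKT substrate AS160 of glucose uptake, was lower on all KO arrays (-0.57), as was Tfeb, the lysosomal transcription factor that mTOR complex 1 retains in the cytoplasm (-0.66). Slc3a2, a subunit of amino acid transporters, differed by 0.33 and the lipid regulator Srebf1 by 0.44, both with all KO arrays above all WT arrays. The helicase gene Eif4a2 differed by -0.16 and Fkbp1a, which encodes the rapamycin-binding FKBP12, by -0.12, both with all KO arrays lower. Sgk1, a kinase related to AKT and induced by glucocorticoids, had signals of 12.92, 13.02 and 12.92 on the WT arrays and 12.43, 12.56 and 12.95 on the KO arrays. As for Ddit4, KO replicates 1 and 2 were below the WT arrays and KO replicate 3 was not. Its difference was -0.31 (adjusted p = 0.659 in limma), and -0.46 (adjusted p = 0.0312) without KO replicate 3, where it was the 1 gene of this list that passed.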

How the data were processed

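The authors deposited log2 MAS5 signals for 45037 probe sets in 6 hippocampus samples (3 WT, 3 KO). MAS5 and affy are named, with no version, in the submitters' processing notes. The methods name GeneSpring and a filter on Absent calls, which were not used here. After 2% trimming at each end, the mean linear signal was 497 to 498 on each array. MAS5 signals near background vary widely on the log2 scale, which affects dim probe sets most.

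In place of Absent calls, a probe set had to exceed the 40th percentile of signals on 3 or more of the 6 arrays. Of all probe sets, 34945 have 1 gene, 932 several and 9160 none in the gene table. A gene is its brightest kept probe set with 1 symbol, which gave 12903 genes. Genotypes were compared by limma 3.58.1 (R 4.3.3; lmFit and eBayes with trend), with p-values adjusted by Benjamini-Hochberg over all genes (threshold 0.05). The script was tested on simulated data. Precision is limited by the number of arrays.

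The members and lists were chosen with earlier results of these data known, so no list was tested. Given on every array are members whose arrays do not overlap, the 2 of each role with the smallest p, Mtor, Rps6 and Akt1, and Ddit4, added after its values were seen. Of each other list at most 2 genes are named, those with the smallest p. Grb10, Insr and Prr5l were added after their values were seen. Promoter windows are RefSeq's on GRCm38.p6, found for 42 of 45 members and not for Deptor, Rps6kb2 and Eif4ebp1. Alternatives were other filters, normalizations, an offset, variance models, weights for arrays, a block for replicate number, other probe set rules and leaving out each array.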

Additional observations from a re-analysis of the deposited data

How the results depend on the processing

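In the 18 alternatives run, no member was called except Deptor under array weights fitted gene by gene (adjusted p = 0.0416), chosen after seeing the data, and Ddit4 without KO replicate 3 (adjusted p = 0.0350). The planned array weights could not be fitted. Over all genes the count of 8 became 0 with a variance without trend, 115 with the gene-by-gene weights and 0 to 53 on leaving out an array (53 without KO replicate 3, 0 or 1 without any other). Members at an unadjusted p under 0.05 numbered 9 with the weights and 1 with median centring or the mean of kept probe sets, against 3. The share of all genes at that p is not given for these settings. Members called numbered 1 with the weights and 0 to 1 on leaving out an array, and other pathway genes called 2 and 0 to 1. The weights gave a median of 0.13 for the upstream inhibitors.

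The 6 members with separated arrays became 2 after median centring and 7 to 18 on leaving out an array (18 without KO replicate 2), where fewer arrays separate more easily. The share of all genes was 16.7% with all arrays and 31.6% without KO replicate 3. It is not given for the other settings, so these counts cannot be set against all genes there. Median centring gave 15 members higher and 27 lower, against 23 and 19. It moved the median of all genes to -0.02. On leaving out an array, the median ran from -0.071 to 0.022 for all members, from -0.12 to 0.045 for PI3K and AKT and from -0.028 to 0.15 for Rheb, Rag and Ragulator. Of the 42 members, 13 changed sign without KO replicate 3, and 0 to 9 in each other alternative. Of the 13 given on every array, 3 changed sign in an alternative: Mtor (-0.030) and Rictor (0.010) without KO replicate 3, and Rragd with the mean of its kept probe sets (-0.15). The cause of these changes was not tested. On leaving out an array, Mtor ranged from -0.030 to 0.39 and Rictor from -0.46 to 0.010. Sesn2 ranged from 0.38 to 1.13 in the same way, the lowest without WT replicate 3.

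With the replicate number as a block, 4 genes and 0 members were called. Same-numbered samples deviated with correlations of -0.04, 0.07 and 0.13, so the numbers were not taken to pair the samples. WT replicate 2 correlated best with KO replicate 1 (0.20).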

Other observations

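SREBP targets, genes of sterol and fatty acid synthesis whose transcription mTOR complex 1 is known to promote, were measured for 15 of 18 listed genes. Of these 10 were higher and 5 lower on average in KO, with a median of 0.06, and none was called by limma. An unadjusted p under 0.05 was found for 1 (7.48% of all genes), and 4 had arrays that did not overlap (16.7% of all genes). Insig1, the sterol-regulated retention protein, was higher on all KO arrays (0.36) and Idi1, an enzyme of isoprenoid synthesis, lower on all (-0.29). ATF4 targets, genes of amino acid supply and stress response, were measured for 20 of 21, with 14 higher and 6 lower, a median of 0.12 and none called. Of these, 3 had an unadjusted p under 0.05 (7.48% of all genes), and 4 had arrays that did not overlap (16.7% of all genes). The lipoprotein receptor gene Vldlr was higher on all KO arrays (0.35), and the transcription factor gene Cebpb was lower on all (-0.44). Without KO replicate 3 the medians were 0.0069 and 0.12.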
